A study of Rattus norvegicus with 35 samples.

Results

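The response of CM-enriched cultures to cyclic stretch was described on 6 of the 35 arrays of the series: 3 of stretched cultures and 3 of unstretched controls, chosen by their sample labels and not by any measured value. CM denotes cardiac myocytes. The cells came from neonatal rat hearts and were grown on flexible Flexcell plates coated with collagen I, in medium with reduced serum. One group was stretched cyclically and equally in all directions for 24 h (mechanical stress, MS), and the other stayed on the same kind of plate without stretch. Each stretched array was paired with the control array of the same numbered experiment, and the number of an array names the experiment and carries no order. Cultures of cardiac fibroblasts on the same plates, 3 stretched and 3 control arrays, served for comparison. The remaining 23 arrays, from irradiated cells and their controls, entered the floor, the normalization and the estimate of the spread.

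Stretch of the heart wall accompanies pressure and volume overload, and the cells sense it through integrins bound to the matrix, through the cytoskeleton and Z-discs, and through stretch-sensitive channels. Known responses include growth of the myocyte, return of fetal genes such as the natriuretic peptides, secretion of growth factors, and deposition of matrix by fibroblasts. Cholesterol synthesis supplies membrane sterols and is set by transcription factors that respond to the sterol content of the endoplasmic reticulum.

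Expression was measured as 1 intensity for each of 8740 probe-sets, which stand for 4736 genes where a single symbol is known. Intensities below are normalised values on a linear scale with a floor at 6.88, at which 15.2% to 19.8% of the values of each of the 6 arrays lay. Changes are log2 values of stretch over control, with their standard error (SE) from the fit over all 35 arrays. The floor can shrink a change next to it. Such a change is still no lower bound, because changes were more spread among dim values. In pair 1 the SD of log2 changes was 0.39 over all probe-sets and 0.19 over those with a mean log2 level of 8 or more. Spearman correlations within the pairs were 0.9787, 0.9681 and 0.9778, and those between arrays of 1 group lay between 0.9679 and 0.9787. The cultures carried myocyte RNA: of 13 measured cardiomyocyte markers, 10 were higher on every CM-enriched array than on every fibroblast array, and their summed intensity was 41042 to 49824 in controls and 41359 to 50415 after stretch, against 4093 to 26381 in fibroblasts. They carried fibroblast RNA as well. The 12 fibroblast markers summed to 39392 to 40072 in controls and 38689 to 44255 after stretch, against 44548 to 46219 in fibroblasts. RNA of both cell types was thus measured together. Not all of these markers set the populations apart: 5 were lower and 3 were higher on every CM-enriched array than on every fibroblast array. In such bulk samples fewer cells of a type and less RNA per cell cannot be told apart.

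No probe-set changed at an adjusted p under 0.05 by limma in CM-enriched cultures after 24 h of stretch (0 of 8740, 0.0%). The smallest adjusted p was 0.0618, reached by 1 gene that was higher, Sdc3, and 1 that was lower, Adgrl3. Without adjustment, limma gave 414 probe-sets a p under 0.05, of which 198 (2.27%) stood higher and 216 (2.47%) lower after stretch, where 437 would pass by the threshold alone. The direction was the same in all 3 pairs for 969 probe-sets that were higher (11.1%) and 937 that were lower (10.7%). At least 1.5-fold in every pair was seen for 16 that were higher (0.183%) and 23 that were lower (0.263%). The 3 stretched arrays lay wholly above the controls for 293 probe-sets (3.35%) and wholly below them for 320 (3.66%). Counted as genes by the brightest probe-set, 531 of 4736 (11.2%) were higher and 556 (11.7%) lower in all pairs, and 99 (2.09%) were higher and 131 (2.77%) lower at an unadjusted p under 0.05. These shares are the background for the gene groups that follow.

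The 3 pairs shared little of their change. Over all 8740 probe-sets the changes of pairs 1 and 2 correlated with Pearson r = 0.00, those of pairs 1 and 3 with 0.01 and those of pairs 2 and 3 with 0.08. Among the 1703 probe-sets with a mean log2 level of 8 or more, r was -0.17, -0.06 and 0.29 in the same order, so pairs 2 and 3 ran together and pair 1 apart. These correlations are across probe-sets that share arrays and normalization, and are given without a test. The arrays of pair 2 also differed more: the SD of its log2 changes was 0.52, against 0.39 in pair 1 and 0.41 in pair 3. Control array 2 stood apart from the rest, with Spearman correlations of 0.9653 to 0.9684 with the other arrays. Stretched array 2 correlated less with this control (0.9681) than with control arrays 1 (0.973) and 3 (0.9758). Whether control array 2 made the wider spread of pair 2 was not tested.

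**Figure D1:**
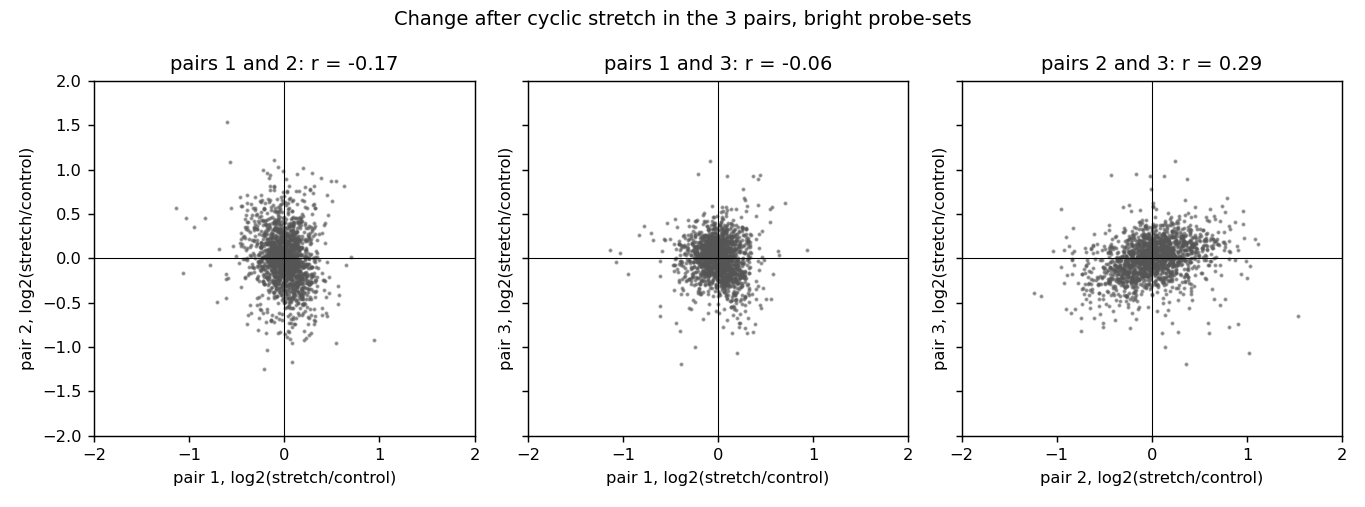
Log2 change after stretch in 1 pair against that in another, for the 1703 probe-sets with a mean log2 level of 8 or more (1 point each; all lie within the plotted range). The clouds for pairs 1 and 2 (r = -0.17) and pairs 1 and 3 (r = -0.06) show no upward slope, and the cloud for pairs 2 and 3 (r = 0.29) leans upward.

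Among genes that were higher in all pairs, Sdc3 had the smallest p. It encodes syndecan-3, a heparan sulphate proteoglycan of the cell surface. Its intensity was 23.6, 18.7 and 22.5 on control arrays 1, 2 and 3, and 67.8, 77.0 and 55.0 on the stretched arrays. Every stretched array lay above every control, and the change was 1.62 (SE 0.23), or 3.07-fold, at an adjusted p of 0.0618 by limma. In cultures of fibroblasts Sdc3 changed by 0.01 (SE 0.33 for the difference of 1.61 between the populations). Dchs1, a cadherin of the Fat and Dachsous pathway of planar polarity, lay between 9.81 and 11.6 on the control arrays and at 23.4, 51.3 and 28.3 on the stretched arrays. The groups did not overlap, and the change was 1.59 (SE 0.36, adjusted p = 0.519). Bmp7, a secreted ligand of the TGF-beta superfamily, went from 29.1, 8.45 and 10.6 to 56.7, 23.9 and 33.3. Its groups overlapped because pair 1 stood high in both, while within the pairs it was higher each time (1.37, SE 0.28, adjusted p = 0.486).

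Tnc, the matrix glycoprotein tenascin C, is made during remodelling of tissue and is measured by 3 probe-sets. One of them gave 13.7, 12.4 and 18.7 on control arrays and 23.8, 49.0 and 39.0 on stretched arrays, with no overlap and a change of 1.28 (SE 0.35, adjusted p = 0.852). The second went from 36.2, 53.3 and 54.8 to 56.4, 70.1 and 67.3 (0.44, SE 0.29), again without overlap. The brightest went from 103, 189 and 98.3 to 83.1, 153 and 127, lower in pairs 1 and 2 and higher in pair 3 (-0.08, SE 0.25). The probe-sets for tenascin C thus did not give 1 direction.

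Other genes with large differences in every pair were mostly dim. Cuzd1 (1.33), which encodes a protein with CUB and zona pellucida domains, Prkca (1.20), which encodes protein kinase C alpha, and the synaptic scaffold Lrrc7 (0.98) lay at or near the floor in all controls. Errfi1 (1.36), a feedback inhibitor of the EGF receptor, went from 24.3, 25.8 and 52.6 to 62.9, 98.2 and 89.9 in the probe-set named here. It was higher on all stretched arrays there, but a brighter probe-set went from 109, 145 and 165 to 112, 129 and 152. The remaining genes named by the size of the smallest pair were Mog, a myelin glycoprotein (0.96, with a second probe-set at -0.27), the activin receptor Acvr2a (0.88), the initiator caspase Casp2 (0.85) and the amyloid precursor-like gene Aplp2 (0.75). For Aplp2 the other 3 probe-sets were higher in every pair too, by 0.08, 0.44 and 0.17.

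Smaller differences with a small p were found in the following genes. Scd2, a stearoyl-CoA desaturase that makes monounsaturated fatty acids, went from 884, 493 and 579 to 982, 835 and 715 (0.41, SE 0.10, unadjusted p = 0.00154, adjusted p = 0.665). The groups overlapped, and each stretched array lay above its own control. Another Scd2 probe-set changed by 0.40 (SE 0.14), and the brightest of its 6 probe-sets was lower in pair 1 and higher in the others (0.26, SE 0.17). Fbxo38, an F-box gene of the ubiquitin system, went from 151, 132 and 138 to 209, 177 and 198 without overlap (0.47, SE 0.13, adjusted p = 0.852). Its other probe-set changed by 0.01 (SE 0.15). The uncharacterised and dim LOC102547700 went from 30.3, 19.7 and 24.7 to 40.6, 26.9 and 46.1 (0.59, SE 0.13, adjusted p = 0.519), and its other probe-set changed by -0.10.

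Adgrl3, the adhesion receptor latrophilin-3, had the smallest p among the genes that were lower. It went from 20.8, 16.3 and 19.3 to 9.54, 7.78 and 6.88, without overlap and with the last array at the floor. The change was -1.23 (SE 0.17, adjusted p = 0.0618), or 2.34-fold on the floored scale. Its other probe-set was at or next to the floor on all arrays but stretched array 3. Gna15, a G protein alpha subunit best known in blood cells, went from 45.7, 48.8 and 53.7 to 29.8, 22.9 and 24.7 (-0.94, SE 0.16, adjusted p = 0.231). Apoc3, an apolipoprotein made mainly in liver and gut, went from 167, 186 and 192 to 116, 109 and 137 (-0.60, SE 0.11, adjusted p = 0.260). In these probe-sets of both genes every stretched array lay below every control. Another Apoc3 probe-set changed by -0.02, -1.2 and 1.82 in the pairs (0.20, SE 0.39), and a further one was at the floor on all 6 arrays.

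**Figure D2:**
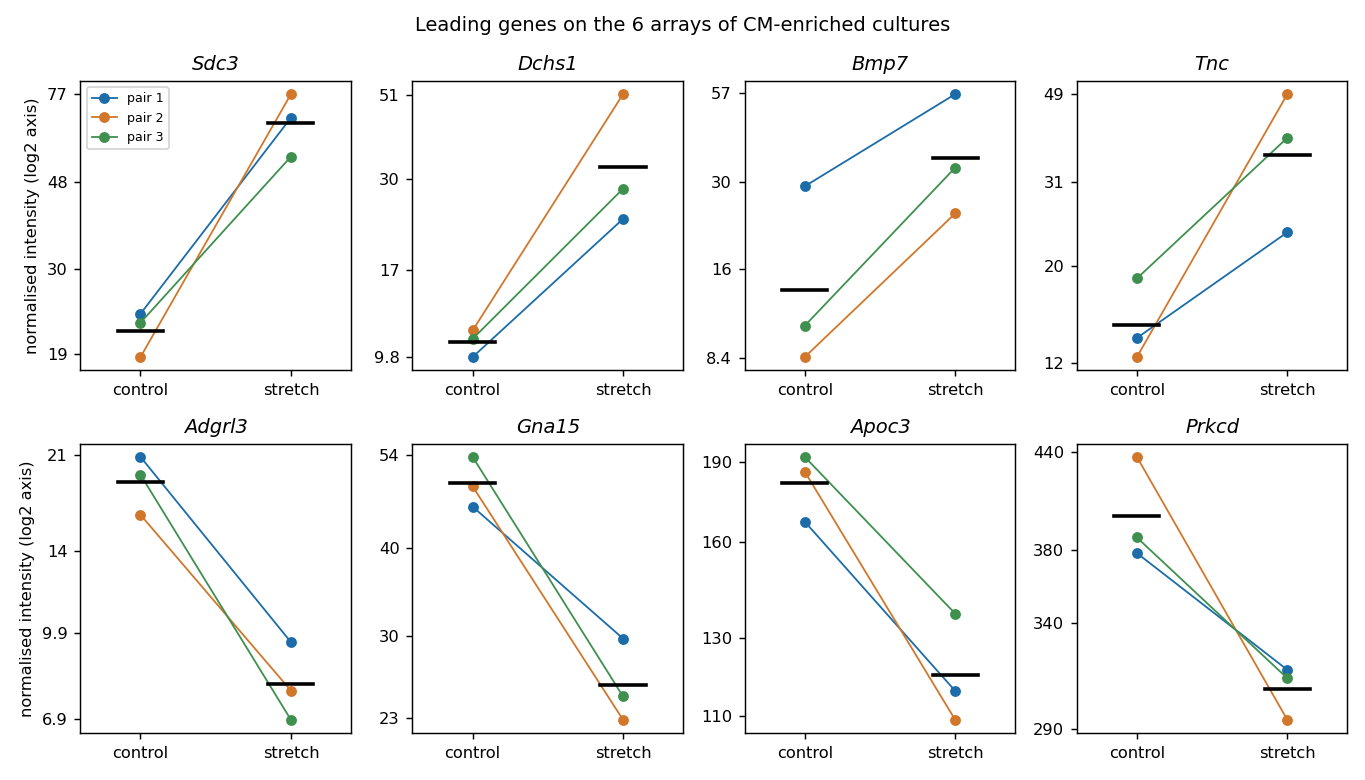
Normalised intensity (log2 axis, a separate range for each gene) on the control and stretched arrays, with lines joining the arrays of a pair and black bars for the mean of the log2 values of 3 arrays. All 3 lines rise for Sdc3, Dchs1, Bmp7 and the shown probe-set of Tnc. All 3 fall for the shown probe-sets of Adgrl3, Gna15, Apoc3 and Prkcd. None of the probe-sets shown reached an adjusted p under 0.05.

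By the change of the pair that differed least, the genes lowest after stretch were Cds1, a synthase of CDP-diacylglycerol (-2.09), Slc34a1, a sodium-phosphate cotransporter of the kidney (-1.15), and Mapk8, the stress-activated kinase JNK1 (-1.13). Cds1 went from 29.6, 54.2 and 30.6 to 6.88, 6.88 and 7.16, with no overlap (-2.39, SE 0.80, adjusted p = 1). Another Cds1 probe-set ran the other way, from 13.3, 19.3 and 20.5 to 25.6, 36.8 and 25.8. Mapk8 went from 15.1, 28.0 and 16.3 to the floor of 6.88 on all 3 stretched arrays (-1.47, SE 0.44). Slc34a1 had 5 probe-sets, of which 4 were lower in every pair, by 1.43, 0.78, 0.49 and 0.14 on the log2 scale, and 1 was higher (0.41). The death ligand Faslg (-1.28), the clotting factor subunit F13a1 (-1.27), Fam83f (-1.18), the inhibin subunit Inhbe (-1.12), the myelin gene Mobp (-1.06), the connexin Gjb5 (-1.01), the ATP-gated channel P2rx2 (-0.76) and the heat shock gene Hspa1l (-0.73) completed the set of 12 with Adgrl3.

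Of the 24 genes named by size, 12 in each direction, 22 had no array over an intensity of 100 and 10 had at least 1 array at the floor. Of the 32 genes named by size or by p, 20 had a further probe-set. In 7 of these a further probe-set had the same sign in all pairs, and in 12 a further probe-set changed the other way.

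Rps15 and Prkcd were brighter genes that were lower with a small p. Rps15, a ribosomal protein, went from 1273, 1606 and 1416 to 979, 1030 and 1208 (-0.42, SE 0.09, adjusted p = 0.519), and its brightest probe-set changed by -0.09 (SE 0.09). Prkcd, protein kinase C delta, went from 378, 437 and 387 to 317, 294 and 313 (-0.38, SE 0.09, adjusted p = 0.665), while its other probe-set changed by -0.03 (SE 0.12). The shown groups of both genes did not overlap. Rag1, a recombinase of lymphocytes, went from 9.14, 11.7 and 14.1 to the floor on all 3 stretched arrays (-0.74, SE 0.15, adjusted p = 0.486).

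The medians of the 2 matrix lists were above 0 in pairs 2 and 3 and 0.00 in pair 1. The list of collagens and collagen processing (19 genes) had a median change of 0.10 (0.03 without replicate 2), with medians of 0.00, 0.21 and 0.05 in pairs 1, 2 and 3, beside 0.00 over all genes. In all pairs 3 of the 19 were higher (15.8%, beside 11.2% of all genes) and 1 was lower (5.26%, beside 11.7%). Col5a2, a chain of the fibril-regulating collagen V, was the gene with the smallest p and went from 1598, 1814 and 1685 to 1782, 2092 and 2092 (0.23, SE 0.09, unadjusted p = 0.0229, adjusted p = 1). Col12a1, which binds to collagen fibrils, went from 77.2, 75.4 and 67.2 to 99.3, 111 and 104 without overlap (0.52, SE 0.28). For Col1a1 of the main fibrillar collagen, 4 probe-sets gave 0.30, 0.18, 0.14 and 0.06. The first of these went from 3894, 3662 and 3732 to 4145, 5070 and 4714 with no overlap (SE 0.13, unadjusted p = 0.0421). Col1a2 changed by 0.10 (SE 0.09) and Col3a1 by 0.07 (SE 0.16).

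Of 35 matrix glycoproteins and proteoglycans, 7 were higher and 2 lower in all pairs, with a median of 0.09 and medians of 0.00, 0.12 and 0.12 by pair. Sdc3 was the 1 member with an unadjusted p under 0.05. Bgn encodes biglycan, a small proteoglycan that binds collagen, and went from 3118, 3109 and 2544 to 3321, 3756 and 3204 (0.23, SE 0.12, adjusted p = 1). The stretched arrays lay above the controls, and within pairs the change was 0.09, 0.27 and 0.33. Its other probe-set changed by -0.05, 0.41 and 0.47. Lamc1, the laminin gamma 1 chain of basement membranes, went from 1631, 1370 and 1245 to 1685, 2173 and 1700 (0.39, SE 0.27), without overlap. Fn1, fibronectin, changed by 0.12 in its brightest probe-set and by 0.31 to 0.47 in 4 others, none with an SE under 0.31. For Bgn and Lamc1 the difference was smallest in pair 1, while the brightest probe-set of Fn1 gave 0.07, 0.00 and 0.30.

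Matrix proteases and their inhibitors (25 genes) had 6 higher (24.0%) and 2 lower (8.0%) in all pairs, beside 11.2% and 11.7% of all genes. Their median was 0.03, and none had an unadjusted p under 0.05. Mmp14, a membrane-bound collagenase, changed by 0.17 (SE 0.09) and its inhibitor Timp2 by -0.23 (SE 0.12). Of 17 genes of integrins, adhesion and junctions 5 were higher (29.4%) and 1 lower (5.88%) in all pairs, with a median of 0.04. Gja1, connexin 43 of the gap junctions between myocytes, went from 328, 252 and 240 to 404, 419 and 360 with no overlap (0.54, SE 0.31). Ptk2, the focal adhesion kinase, was the member with the smallest p and went from 196, 249 and 185 to 187, 156 and 165 (-0.30, SE 0.13, unadjusted p = 0.0415).

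Enzymes of cholesterol synthesis more often kept a higher than a lower level over the pairs. Of 14 measured enzymes 5 were higher in every pair (Idi1, Cyp51, Lss, Sqle and Fdps), or 35.7%, beside 11.2% of all genes. Other lists came near that share, with 30.8% for fetal and hypertrophy genes and 29.4% for integrins, adhesion and junctions. Of the 14 enzymes, 0 were lower in every pair (beside 11.7% of all genes), and 2 had an unadjusted p under 0.05. The study singled out this pathway, like the matrix genes, on these samples, so the direction is not independent evidence. The median change was 0.07, with 0.06, 0.07 and 0.08 by pair, and in cultures of fibroblasts it was -0.02. These are small shifts, and no member had an adjusted p under 1. Idi1, the isomerase that makes the allylic isoprenoid unit, went from 793, 314 and 511 to 872, 609 and 671 (0.50, SE 0.19, unadjusted p = 0.0238). Cyp51, lanosterol demethylase, went from 1048, 717 and 939 to 1223, 1073 and 1033 (0.31, SE 0.12, unadjusted p = 0.0196). In both genes control array 2 was the lowest and pair 2 changed most, and the groups overlapped. Of the other 4 probe-sets of Cyp51, 2 changed by 0.10 and 0.06 and 2 by -0.11 and -0.28.

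Differences of the other members were smaller. Lss, which closes the sterol rings, went from 326, 219 and 232 to 357, 278 and 264 (0.22, SE 0.12). Its other 2 probe-sets were lower in pair 1 and higher in the others (0.49, SE 0.29, and 0.15, SE 0.16). Sqle, the epoxidase before it, went from 938, 765 and 567 to 1001, 809 and 736 (0.18, SE 0.11). Fdps, the farnesyl diphosphate synthase, changed by 0.01, 0.06 and 0.08 in the pairs, and its other 2 probe-sets, which did not keep 1 sign, by 0.00 and -0.04. Acat2 (0.18), Mvk (0.02) and Mvd (-0.10) of the steps up to the isoprenoid unit, Fdft1 (-0.07), which makes squalene, and Msmo1 (0.09), Nsdhl (0.16), Hsd17b7 (0.01), Ebp (-0.10) and Dhcr7 (0.02) of the late steps did not keep 1 sign in the pairs. Of Idi1 the change in fibroblasts was -0.20, and the difference between the populations was 0.70 (SE 0.27, unadjusted p = 0.0244, adjusted p = 1). The SREBP targets outside this pathway, 9 genes of fatty acid synthesis and lipid uptake, had 0 higher and 0 lower in all pairs, and a median of 0.00.

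**Figure D3:**
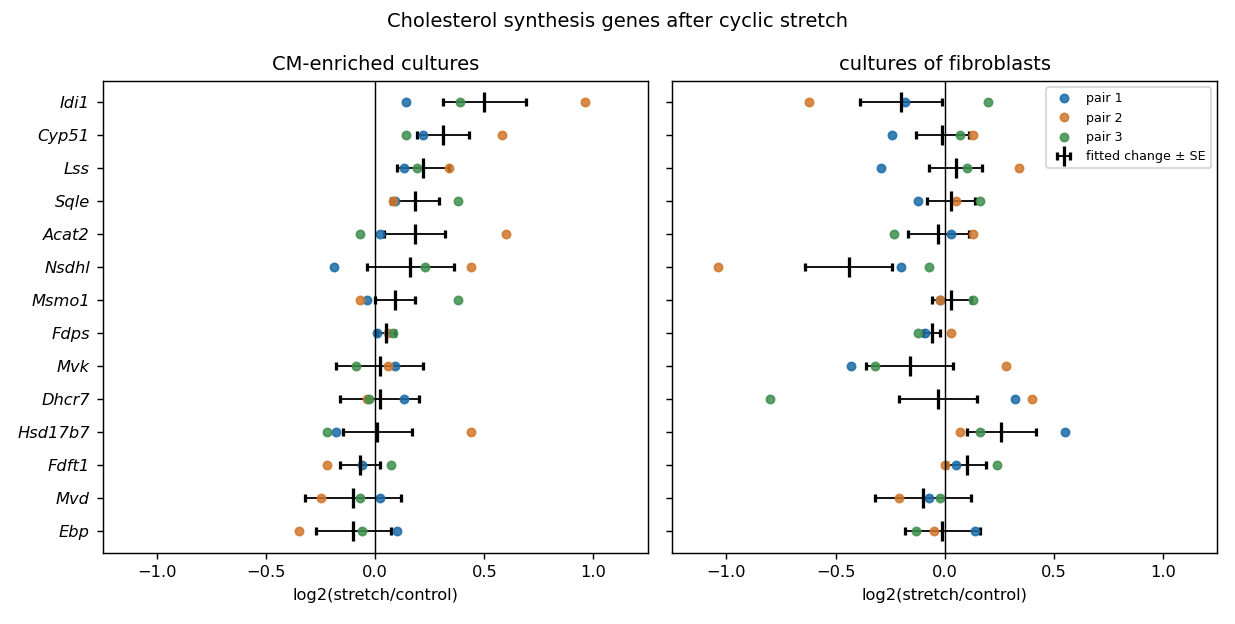
Log2 change after stretch for the 14 measured cholesterol synthesis genes, with coloured points for the 3 pairs and a black bar with its SE for the fitted change, in CM-enriched cultures (left) and cultures of fibroblasts (right). On the left all 3 points lie right of 0 for Idi1, Cyp51, Lss, Sqle and Fdps.

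The promoters of the enzymes that were higher in every pair are printed from the RefSeq table of build GRCr8, which holds 4 of the 5, to show what the named members carry upstream of their start. Each runs 5′ to 3′ in the direction of transcription, from 250 bases before to 50 after the start of the gene. Capitals mark the letters CCAAT or, for the other strand, ATTGG, the CCAAT box bound by NF-Y.
Idi1 (chr17:66547475-66547774, minus strand): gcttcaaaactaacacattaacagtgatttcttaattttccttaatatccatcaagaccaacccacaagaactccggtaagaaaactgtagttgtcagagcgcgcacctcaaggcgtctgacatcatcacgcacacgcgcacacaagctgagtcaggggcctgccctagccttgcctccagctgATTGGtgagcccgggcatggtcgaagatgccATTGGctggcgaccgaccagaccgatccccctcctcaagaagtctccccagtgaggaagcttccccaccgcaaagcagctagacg
Lss (chr20:12118181-12118480, minus strand): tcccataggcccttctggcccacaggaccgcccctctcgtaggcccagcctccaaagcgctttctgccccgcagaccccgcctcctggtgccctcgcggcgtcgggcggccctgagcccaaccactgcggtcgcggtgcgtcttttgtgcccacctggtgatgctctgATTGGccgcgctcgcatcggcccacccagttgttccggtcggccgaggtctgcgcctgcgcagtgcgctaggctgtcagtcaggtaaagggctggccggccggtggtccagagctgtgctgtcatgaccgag
Fdps (chr2:176804767-176805066, minus strand): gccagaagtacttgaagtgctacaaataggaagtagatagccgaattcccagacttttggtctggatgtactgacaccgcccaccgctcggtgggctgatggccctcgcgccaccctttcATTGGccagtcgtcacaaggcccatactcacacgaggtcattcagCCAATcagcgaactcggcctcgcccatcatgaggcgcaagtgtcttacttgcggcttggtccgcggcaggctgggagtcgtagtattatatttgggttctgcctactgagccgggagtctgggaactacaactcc
Cyp51 (chr4:30991443-30991742, plus strand): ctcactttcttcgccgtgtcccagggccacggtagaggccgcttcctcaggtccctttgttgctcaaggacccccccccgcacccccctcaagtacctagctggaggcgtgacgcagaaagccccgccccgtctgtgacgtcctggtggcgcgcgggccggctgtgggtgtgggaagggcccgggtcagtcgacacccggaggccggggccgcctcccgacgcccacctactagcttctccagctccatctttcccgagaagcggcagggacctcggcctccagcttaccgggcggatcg
The table holds promoters of 12 of the 14 enzymes. The letters CCAAT stand on either strand in 9 of these 12, beside 37.5% of the 33469 promoters of the table, and are absent from that of Cyp51, which was higher in every pair as well. In Idi1 they begin 66 and 35 bases before the start, in Lss 82 and in Fdps 130 and 85. The letters TCACNCCAC of a sterol regulatory element, searched on both strands, stand in 0 of the 12 and in 1.12% of all promoters. Of the 9 with CCAAT, 6 belong to enzymes that did not keep 1 sign in the pairs. These are matches of letters only.

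The list of fetal and hypertrophy genes (13 genes) held both genes known to return in overloaded myocardium and adult genes known to fall there. Its median was 0.02, and none had an unadjusted p under 0.05. In all pairs 4 were higher (30.8%, beside 11.2% of all genes) and 1 was lower (7.69%, beside 11.7%). Of the 4 that were higher, Myh7 and the slow troponin Tnni1 belong to the fetal program. Myh6, the fast myosin heavy chain (0.13, SE 0.35), and Pln, the calcium pump regulator phospholamban (0.14), belong to the adult one. Nppa, atrial natriuretic peptide, went from 3238, 3282 and 3021 to 3484, 2693 and 2576 in its brightest probe-set (-0.14, SE 0.11). Its other 3 probe-sets changed by -0.04, 0.16 and 0.05. Myh7, the slow myosin heavy chain, went from 4779, 4931 and 3938 to 5140, 4951 and 4257 (0.07, SE 0.15), and its other probe-set from 1826, 1763 and 1598 to 2173, 2104 and 1839 (0.24, SE 0.18). Both were higher in every pair, and the second had no overlap. Myl4, the atrial light chain, was lower in every pair (-0.35, SE 0.18). The sarcomere and Z-disc list (20 genes) had 4 higher and 2 lower, with a median of -0.01. Myocyte calcium handling (21 genes) had 4 higher and 5 lower and a median of 0.09. Its smallest p was that of Camk2d, a calcium-dependent kinase, which went from 613, 495 and 507 to 675, 553 and 586 (0.17, SE 0.06, unadjusted p = 0.0173).

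Targets of SRF and YAP, the factors that follow actin tension, did not share a direction. Of 11 genes 1 was higher (9.09%, beside 11.2% of all genes) and 3 were lower (27.3%, beside 11.7%) in all pairs. The median of these targets was -0.04. Tagln, an actin-binding protein of smooth muscle type, went from 1402, 628 and 753 to 1463, 831 and 920 (0.25, SE 0.10, unadjusted p = 0.0259). Ccn1, a secreted matricellular protein, went from 41.0, 29.6 and 38.6 to 25.1, 26.6 and 14.8 with no overlap (-0.75, SE 0.31, unadjusted p = 0.0348). Acta2, smooth muscle actin, changed by 0.03 (SE 0.11). The non-muscle cytoskeleton (25 genes) had 5 higher and 1 lower and a median of 0.00. Its members with the smallest p were Myl12b, a regulatory myosin light chain (-0.32, SE 0.09, unadjusted p = 0.00437), and Ezr, which links actin to the membrane (0.25, SE 0.10, unadjusted p = 0.0297). Cardiac and stretch-sensitive channels (17 genes) had 1 higher, 2 lower and a median of -0.08.

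Immediate early and AP-1 genes, which respond within minutes to hours, had 1 of 20 higher and 3 lower in all pairs at 24 h, with a median of -0.08. Fos went from 351, 836 and 494 to 353, 464 and 324 (-0.48, SE 0.19, unadjusted p = 0.0229), lower in pairs 2 and 3 and level in pair 1. MAP kinases and phosphatases (18 genes) had 3 higher, 1 lower and a median of 0.06. Heat shock proteins and chaperones (20 genes) had 3 higher, 1 lower and a median of -0.02.

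Among secreted factors, the TGF-beta, FGF, VEGF, PDGF and EGF families (42 genes) had 5 higher and 5 lower, with a median of 0.02. Beside Bmp7, Vegfa, the main growth factor of vessels, went from 347, 233 and 227 to 381, 355 and 334 (0.43, SE 0.21). Each stretched array lay above its control, and the groups overlapped. Pdgfa, a mitogen of fibroblasts, went from 184, 183 and 188 to 128, 114 and 169 without overlap (-0.45, SE 0.17, unadjusted p = 0.0209). In the insulin-like growth factor axis 0 of 14 genes were higher and 4 lower in all pairs (28.6% lower, beside 11.7% of all genes). Its median was -0.07 (-0.09, -0.11 and -0.03 by pair). Igf1 went from 978, 1480 and 1427 to 761, 1028 and 1231 (-0.37, SE 0.13, unadjusted p = 0.0154), lower in each pair with overlapping groups. Igfbp2, a binding protein, went from 71.5, 84.2 and 84.8 to 71.0, 39.8 and 58.9 (-0.54, SE 0.23, unadjusted p = 0.0351), without overlap, though in pair 1 the difference was only -0.01. Chemokines, cytokines and adhesion molecules had 0 of 23 higher and 7 lower (30.4% lower, beside 11.7% of all genes), with a median of -0.08. Ctf1, cardiotrophin-1 of the hypertrophic cytokines, went from 39.3, 54.2 and 32.7 to 29.7, 27.9 and 30.4 (-0.49, SE 0.21, unadjusted p = 0.0381), and Il1b, interleukin-1 beta, from 28.9, 36.1 and 41.0 to 18.5, 27.1 and 29.7 (-0.51, SE 0.27).

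**Figure D4:**
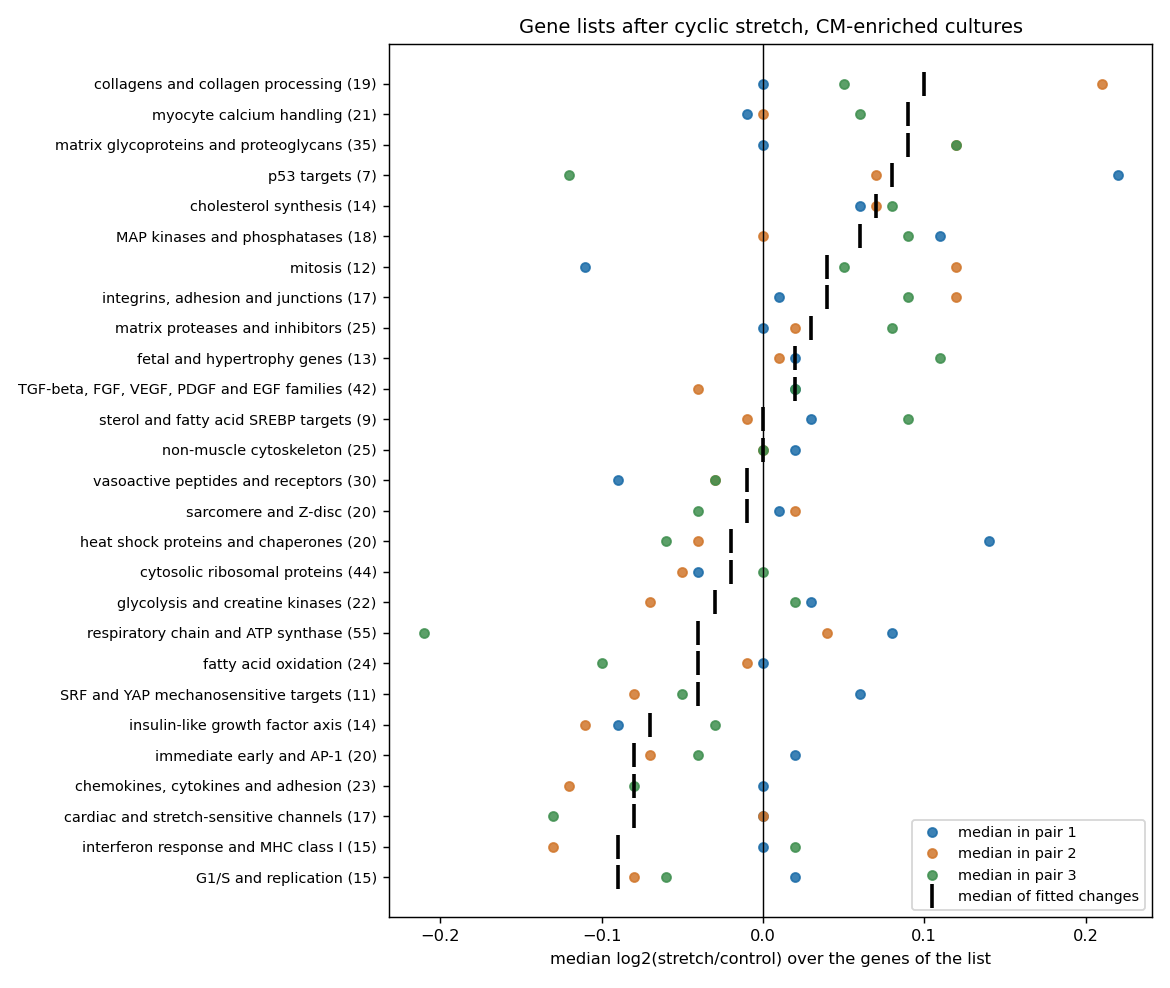
Median log2 change over the genes of each of the 27 gene lists (number of genes in brackets), with coloured points for the medians in the 3 pairs and black bars for the median of the fitted changes. Of the medians of fitted changes 26 are under 0.1 in size and the collagens stand at 0.10, 5 lists keep 1 sign in the 3 pairs, and overlapping points hide each other.

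Markers of endothelium, another cell type that such cultures can hold, had a median below 0 in each pair, but only some kept 1 sign. Of 8 endothelial markers 4 were lower (beside 11.7% of all genes) and 0 higher in all pairs. The median was -0.27 (-0.21, -0.19 and -0.70 by pair). Their summed intensity was 426 to 650 in controls and 400 to 518 after stretch, with log2 changes of -0.09, -0.11 and -0.55 by pair. Pecam1, an adhesion molecule of endothelium, went from 188, 276 and 229 to 166, 210 and 205 (-0.25, SE 0.41), and Flt1, a receptor of VEGF, from 67.6, 69.1 and 70.9 to 56.9, 40.8 and 40.1 (-0.61, SE 0.36). The dim Icam2 (-0.47) and Sele (-0.47) were lower in all pairs too. Kdr (0.17), Nos3 (-0.30), Edn1 (-0.10) and Vwf (-0.06) did not keep 1 sign. Edn1 lay lower on every CM-enriched array (27.7 to 59.2) than on every fibroblast array (102 to 227), so it need not mark endothelium here. Only Flt1 had groups apart, and none of the 8 had an unadjusted p under 0.05. Of these markers Sele is also in the cytokine list, Edn1 and Nos3 are in the vasoactive list, and Flt1 and Kdr in the growth factor list, and the part of endothelial RNA in the lower cytokine genes was not tested. The cardiomyocyte markers had a median of 0.02 (2 of 13 higher, 0 lower) and the fibroblast markers one of 0.07 (0 of 12 higher, 1 lower). By pair the fibroblast markers gave -0.07, 0.13 and 0.09, with 7 of the 12 also in the collagen or the matrix glycoprotein list, so these medians are not separate measurements. Macrophage and leukocyte markers (9 genes) summed to 234 to 315 in controls and 246 to 267 after stretch, with C1qb at the floor on all 6 arrays. Smooth muscle markers (4 genes) summed to 3329 to 4983 and 3368 to 5083, those of nerve and Schwann cells (6 genes) to 131 to 167 and 127 to 165, those of epicardium and mesothelium (4 genes) to 161 to 166 and 152 to 179, and erythroid markers (4 genes) to 188 to 431 and 178 to 270.

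Genes that the text of the study speaks of for stretch, or that belong to a family it speaks of, were followed through their brightest probe-set. Of 13 that were measured 4 were higher in all pairs (30.8%, beside 11.2% of all genes), namely Bgn, Lamc1, Myh7 and Mdm2. In all pairs 0 were lower (beside 11.7% of all genes). The median was 0.08, and none had an unadjusted p under 0.05. The list was assembled here from genes that the study describes as higher and genes that it describes as not higher on these samples, so its direction is not independent evidence. Of its damage-response members, Cdkn1a, the inhibitor p21, went from 440, 231 and 339 to 483, 285 and 297 (0.08, SE 0.23). Ddit3, the stress factor CHOP, went from 238, 242 and 248 to 290, 172 and 236 (-0.09, SE 0.15). Mdm2, the p53 ubiquitin ligase, went from 179, 135 and 150 to 234, 161 and 156 (0.23, SE 0.13), while another Mdm2 probe-set went from 175, 222 and 178 to 170, 110 and 127 (-0.52, SE 0.20).

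The response differed from that of cultures of fibroblasts in no probe-set at an adjusted p under 0.05 by limma (0 of 8740, 0.0%; 365 at an unadjusted p under 0.05). Nor did fibroblasts respond with a probe-set past that threshold, with 468 at an unadjusted p under 0.05. The changes of the 2 populations correlated with r = 0.04 across all probe-sets and 0.13 across the bright ones. The smallest p for a difference among genes of 1 sign in the CM pairs was that of Adgrl3, which changed by -1.23 in CM-enriched cultures and 0.13 in fibroblasts (difference -1.36, SE 0.25, unadjusted p = 0.000128, adjusted p = 1). Sdc3 came next, at 1.62 and 0.01 (unadjusted p = 0.000358). Rag1 (difference -1.03, SE 0.21), the neuronal ETS factor Fev (-1.69, SE 0.39) and the endosomal GTPase Rab4b (-0.58, SE 0.14) had a lower change in CM-enriched cultures than in fibroblasts, which is a difference of changes and not of levels. Ankfy1, an endosomal protein (0.61, SE 0.15), the mitochondrial membrane gene Mtch2 (0.56, SE 0.14) and the centrosomal gene Cep78 (1.08, SE 0.28) had a higher change. For these probe-sets of Fev, Rab4b, Mtch2 and Cep78 the fibroblasts gave 1.11, 0.38, -0.45 and -0.55, no less than the size of the change in CM-enriched cultures. Another Rab4b probe-set was higher in every CM pair (0.43, SE 0.24), and its difference from fibroblasts was -0.11 (SE 0.34). Another Ankfy1 probe-set changed by -0.11 (SE 0.15) in CM-enriched cultures, with a difference of 0.04 (SE 0.22). The fibroblast cultures also held myocyte RNA in unequal amounts: Myh6, the fast myosin heavy chain, stood at 290, 1480 and 86.3 on their control arrays.

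**Figure D5:**
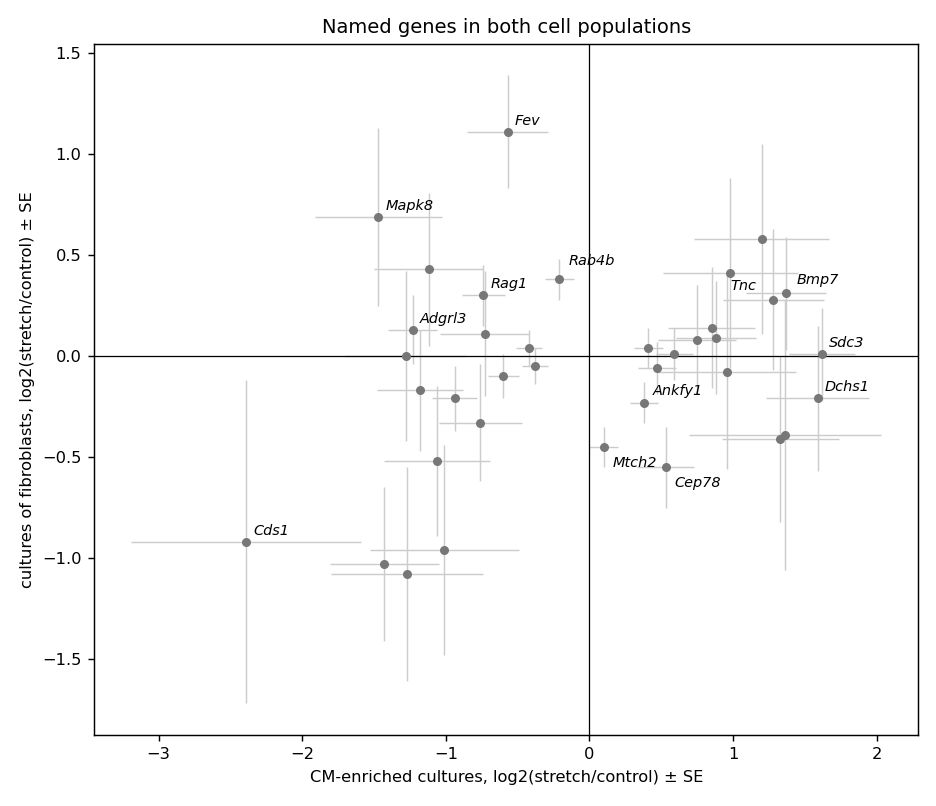
Log2 change after stretch in CM-enriched cultures (horizontal) and cultures of fibroblasts (vertical) with SE bars, for the 37 probe-sets named by size, by p or by the difference; some are labelled. Sdc3 and Adgrl3 lie far from 0 horizontally (1.62 and -1.23) and near 0 vertically (0.01 and 0.13).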

How the data were processed

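RNA of each culture was hybridised to 1 Affymetrix rat genome array. The authors deposited 1 linear intensity for each probe-set and array, and the software that made these intensities is not given in the sources used here. The probe-level correction and model of the study are not part of them. The 6 arrays of stretched and control CM-enriched cultures were the subject, and the number of arrays limits the precision.

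Arrays were scaled to a common 75th percentile, set to no less than 6.88, which the lowest 20% of the scaled values do not exceed, taken to log2 and quantile normalized. The 59 control probe-sets were left out and 8740 tested. Of these 7006 carry 1 symbol, 308 several and 1426 none in the array annotation, and 6985 were matched to the rat gene table by gene number. Genes whose probe-sets are not in that annotation were not analysed here.

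All 35 arrays were fitted with limma 3.58.1 in R 4.3.3 (lmFit, and eBayes with a variance trend), with the numbered experiment as a block, as in the model of the study (11 residual degrees of freedom). Tests were two-sided and p values adjusted by the Benjamini-Hochberg procedure over 8740 probe-sets. With 3 pairs an exact permutation of signs cannot give a p under 0.25. The pairing rests on the numbers in the titles, a title without one being taken as 1, and on the methods, by which control and stressed cells formed independent experiments. As a check, deviations from the group means correlated within pairs with 0.327, 0.063 and 0.209, and for pair 2 another control gave 0.079. No 2 of the 6 arrays held identical values. Scripts were tested on simulated data with known changes.

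Gene lists are described by counts and by medians over the brightest probe-set of each gene, with no test. The genes named are, in each direction, the 12 with the largest smallest change among 3 pairs of 1 sign and with all arrays of the higher group above the floor, the 6 with the smallest p and 1 sign in the pairs, the 4 with the smallest p of the difference from fibroblasts, those the text of the study speaks of for stretch, or of a family it speaks of, and up to 6 members of a list by smallest p. Where the text names a further gene of a list or another probe-set, it was chosen after its values were seen. The members, lists and rules were chosen with earlier results of these data known. Alternatives changed the block, the arrays fitted, the scaling, the floor, the filter, the variance trend and the replicates. Python 3.11.15, pandas 2.3.3 and matplotlib 3.10.9 were used for summaries.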

Additional observations from a re-analysis of the deposited data

How the results depend on the processing

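The pairing was kept as a replicate block. In the fit with no replicate block, no probe-set passed an adjusted p under 0.05 either, and 91 were higher and 118 lower at an unadjusted p under 0.05 (194 for the difference from fibroblasts). Fits to the 12 stretch arrays alone called 1 higher and 1 lower, and so did a floor at the 40th percentile, with other genes: Cox6c-ps1 and an unnamed probe-set in the first, Adcy4 and Cxcl13 in the second. Under that floor 5 probe-sets were higher and 3 lower by 1.5-fold in every pair, and 5 and 4 with a pseudocount of 16 in place of a floor. Scaling without quantile normalization gave 36 lower by that measure, by percentile and by trimmed mean alike, and under percentile scaling the cholesterol synthesis median was 0.05, Mvk -0.02 and Hsd17b7 -0.06 (-0.04 with the trimmed mean). With the mean over all probe-sets of a gene the cholesterol synthesis median was 0.12.

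Leaving out each replicate in turn gave 0 to 2 higher and 0 to 1 lower at an adjusted p under 0.05 (127 to 291 and 161 to 346 unadjusted) and 0 to 5 for the difference. The calls came without replicate 1 (Ass1, Rag1 and an unnamed probe-set; 4 for the difference) and without replicate 3 (5 for the difference), mostly next to the floor. With 2 pairs left, agreement is easier: 1674 to 2012 were higher and 1699 to 2053 lower in both, and 67 to 121 and 82 to 125 by 1.5-fold. Medians ranged from 0.03 to 0.13 for cholesterol synthesis, 0.01 to 0.13 for matrix glycoproteins and proteoglycans (0.01 without replicate 2), 0.03 to 0.15 for collagens (0.03 without replicate 2) and -0.13 to 0.01 for SRF and YAP targets. Of 28 gene lists 10 had medians of both signs among these fits, mitosis (-0.08 to 0.18), G1/S and replication (-0.16 to 0.07) and MAP kinases (-0.07 to 0.09) among them. The sign turned for Acat2 (-0.03 to 0.31), Acta2 (-0.04 to 0.08), Cdkn1a (-0.03 to 0.22), Col3a1 (-0.04 to 0.14), Ddit3 (-0.28 to 0.11), Dhcr7 (-0.03 to 0.05), Ebp (-0.21 to 0.02), Fdft1 (-0.14 to 0.01), Hsd17b7 (-0.20 to 0.13), Msmo1 (-0.05 to 0.17), Mvk (-0.02 to 0.07) and the brightest Tnc probe-set (-0.31 to 0.03). None of the 37 probe-sets named by size, by p or by the difference turned its sign under any alternative run. They were chosen for 1 sign in all 3 pairs, so leaving out a replicate could not turn it. Changes of the block or the variance trend keep the fitted change, so these runs could not turn it either. The adjusted p of Sdc3 ranged from 0.0513 to 1 over the alternatives, and Adgrl3 lay at the higher floor in both groups. The cause of these shifts was not tested.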

Other observations

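Of 44 cytosolic ribosomal protein genes 1 was higher and 8 lower in all pairs (18.2% lower, beside 11.7% of all genes), with a median of -0.02. Rpl27 went from 3638, 3689 and 4006 to 3369, 3030 and 3557 (-0.19, SE 0.06, unadjusted p = 0.00858) and Rpl24 from 5731, 5467 and 5867 to 5277, 5163 and 5192 (-0.13, SE 0.05, unadjusted p = 0.0321), both without overlap. The respiratory chain and ATP synthase list (55 genes) had 1 higher and 5 lower (9.09%, under the share of all genes) and a median of -0.04, with 0.08, 0.04 and -0.21 by pair. Ndufb8, a subunit of complex I, went from 1904, 2068 and 2179 to 1867, 1491 and 1690 (-0.29, SE 0.10, unadjusted p = 0.0138), and Atp5f1e, a subunit of ATP synthase, from 1735, 1769 and 1651 to 1615, 1317 and 1491 (-0.23, SE 0.08, unadjusted p = 0.0182), again without overlap. None of these had an adjusted p under 0.05.

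Fuel genes showed no common direction. Fatty acid oxidation (24 genes) had 3 higher (12.5%) and 5 lower (20.8%), beside 11.2% and 11.7% of all genes, with a median of -0.04. Glycolysis with creatine kinases (22 genes) had 3 higher and 2 lower with a median of -0.03. The very long-chain acyl-CoA dehydrogenase Acadvl (0.42, SE 0.18) and the mitochondrial thiolase Acaa2 (-0.20, SE 0.10) had changes of opposite sign. Cell cycle genes of G1/S and replication (15 genes) had 2 higher (13.3%) and 4 lower (26.7%) with a median of -0.09. Those of mitosis (12 genes) had 1 higher and 0 lower with 0.04, and p53 targets (7 genes) 1 and 0 with 0.08. Ccnd2, cyclin D2, went from 809, 806 and 794 to 638, 753 and 765 (-0.16, SE 0.09), without overlap. Interferon response and MHC class I (15 genes) had 0 higher and 1 lower with a median of -0.09, and vasoactive peptides and receptors (30 genes) 1 higher and 2 lower with a median of -0.01.

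Single arrays stood out in some dim genes of the stretch experiment. Edn3, an endothelin, was at 17.1 or less in controls and at 56.5, 9.09 and 14.0 after stretch. Nr4a3, an orphan nuclear receptor, was at 42.2, 77.4 and 8.58 in controls and at 44.6, 61.7 and 67.4 after stretch. In each case 1 of the 6 arrays made the difference.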
